A study of Homo sapiens with 6 samples.

Results

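TDG and 9 other enzymes that open base excision repair were followed across the 6 arrays of the series: the glycosylases UNG, SMUG1, MBD4, OGG1, MUTYH, NEIL1, NEIL2 and NTHL1, and the endonuclease APEX1. They are 10 of the 23595 distinct gene symbols on the array and have 26 of its 45033 probe sets. TDG was picked by its high value in the SET8 shRNA arrays, and the other 9 by their enzymatic role, with earlier results of these arrays known. TDG's difference between the shRNAs is therefore a description here and has no test.

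The cells were HEK293, a line derived from human embryonic kidney, and cDNA made from their total RNA was labelled with Cy3 and hybridised to NimbleGen arrays, 1 sample to an array. In the first group the cells carried an shRNA against SET8 and received Wnt3a medium. In the second they carried a control shRNA and received Wnt3a medium, and in the third a control shRNA and control medium, with 2 arrays per group. Transfection lasted about 40 hours and the medium, labelled CM, was given for 7 hours. The sample titles and design text also use si or siRNA for the transfected agents; shRNA follows the treatment protocol. SET8, now named KMT5A, places a single methyl group on histone H4. Cells with SET8 shRNA in control medium were not analysed here, and neither the shRNA's effect without Wnt3a nor the interaction of both could be assessed. The labels do not say whether the arrays of a group came from separate cultures. The p-values therefore rest on the spread between these arrays, which may be technical.

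Base excision repair removes single damaged or mismatched bases. A DNA glycosylase flips the base out and cuts its bond to the sugar, APEX1 nicks the strand at the resulting abasic site, and a polymerase and a ligase fill and seal the gap. TDG removes thymine or uracil opposite guanine, and it also removes the oxidised cytosines 5-formylcytosine and 5-carboxylcytosine that TET enzymes make from 5-methylcytosine, which makes it part of active DNA demethylation. MBD4 is the other thymine glycosylase of the set and carries a domain that binds methylated CpG. TDG protein and SET8 protein are both degraded in S phase through the ubiquitin ligase CRL4-Cdt2 when they bind PCNA on chromatin; the arrays measure mRNA only.

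The promoters of TDG and MBD4 are printed because both genes encode thymine glycosylases that act at CpG sites, while their values on these arrays were unlike. Both windows run from 250 bases before to 50 bases after the annotated start, 5′ to 3′ on the coding strand, from RefSeq on GRCh38.p14. TDG lies on the plus strand at chr12:103965622-103965921, and MBD4 lies on the minus strand at chr3:129439899-129440198. Capitals mark CpG dinucleotides.
TDG: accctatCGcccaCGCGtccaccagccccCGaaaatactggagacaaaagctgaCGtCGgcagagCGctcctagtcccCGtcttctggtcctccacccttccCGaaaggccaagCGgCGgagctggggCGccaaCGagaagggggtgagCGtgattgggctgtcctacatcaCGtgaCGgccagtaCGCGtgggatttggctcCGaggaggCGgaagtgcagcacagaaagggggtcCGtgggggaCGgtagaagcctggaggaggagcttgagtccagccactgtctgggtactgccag
MBD4: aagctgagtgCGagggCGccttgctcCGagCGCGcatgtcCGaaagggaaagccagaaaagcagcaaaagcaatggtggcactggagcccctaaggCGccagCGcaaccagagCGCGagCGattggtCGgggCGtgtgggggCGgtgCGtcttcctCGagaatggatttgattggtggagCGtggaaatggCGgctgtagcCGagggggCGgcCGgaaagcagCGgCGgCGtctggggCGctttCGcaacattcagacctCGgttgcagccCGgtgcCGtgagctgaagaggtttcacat
The TDG window held 22 CpG dinucleotides and the MBD4 window 29, against a median of 14 over the 35116 windows of 300 bases in the table. At least 22 CpG stood in 37.7% of all windows and at least 29 in 24.2%. The letters CTTTGAA or their variants spelled CTTTGAT or otherwise CTTTGTA or finally CTTTGTT, taken as a TCF/LEF motif on both strands, were in neither window, and 13.8% of all windows held one. The letters TTTCCCGC, TTTCGCGC, TTTGCCGC and TTTGGCGC, taken as an E2F motif on both strands, were in neither window, and 3.3% of all windows held one. No member's window used here held both motifs, so no matches overlapped. Of the 13 windows used for 8 of the 10 genes, 1 window of UNG held an E2F match, whose first base lay 63 bases before the start. A TCF/LEF match was in 1 window each of MUTYH and NEIL1. No window of SMUG1 or NEIL2 was used. The absence of these letters says only that they are not in these windows.

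The shRNA and the medium were checked first on the genes they should move. On the brighter KMT5A probe set, log2 intensity was 8.97 and 9.65 in the SET8 shRNA arrays, against 11.20 and 10.53 with control shRNA in Wnt3a medium and 11.03 and 10.75 in control medium. The second KMT5A probe set read 9.03 and 8.34, against 9.83 and 9.76 and then 9.83 and 9.94 in the same order of groups. SET8 shRNA arrays were below all 4 others on both probe sets, with differences from control shRNA in Wnt3a medium of -1.56 (SE 0.34, limma adjusted p = 0.24) and -1.11 (SE 0.28, limma adjusted p = 0.33). NKD1, a Wnt feedback inhibitor, read 11.61 and 11.63 with control shRNA in Wnt3a medium, against 8.97 and 8.70 in control medium, a difference of 2.79 (SE 0.25, limma adjusted p = 0.091). AXIN2, another Wnt feedback inhibitor, read 10.00 and 9.47 against 8.55 and 7.79 in the same groups on its brighter probe set. Across probe sets, arrays of a group correlated at 0.985 with SET8 shRNA, 0.976 with control shRNA in Wnt3a medium and 0.972 in control medium. Of 7 genes taken as HEK293 markers (KRT8, KRT18, VIM, CDH2, NEFL, NEFM and PAX2), 6 lay above the array median on all 6 arrays, and PAX2 did on 2. Summed intensity of these markers was 62027 to 63354 with SET8 shRNA, 58894 to 63642 with control shRNA in Wnt3a medium and 63802 to 65867 in control medium.

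TDG had the widest spread of the 10 enzymes between arrays, which its selection by a high value in the SET8 shRNA arrays favours. It has a single probe set of 3 probes (NM_001008411, which also stands for NM_003211; chromosome 12, 102883746 to 102906786, hg18, the span of the transcript). Its log2 intensity was 8.25 and 8.59 in the SET8 shRNA arrays, 6.61 and 6.61 with control shRNA in Wnt3a medium, and 6.49 and 6.58 with control shRNA in control medium. Both SET8 shRNA arrays lay above all 4 others, and those 4 lay close together whichever medium they had received.

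On the linear scale the deposited TDG intensity was 303.4 and 386.4 with SET8 shRNA, against 97.9 and 98 with control shRNA in Wnt3a medium and 90.1 and 96 in control medium. The mean log2 intensity was 8.42 ± 0.25 with SET8 shRNA and 6.61 ± 0.001 with control shRNA in Wnt3a medium (SD, n = 2 each), a difference of 1.81 (SE 0.24) or 3.5-fold. Array by array, SET8 shRNA replicate 1 stood 1.63 and replicate 2 stood 1.98 above the mean of the control shRNA arrays in Wnt3a medium. Among the 23808 probe sets tested, the TDG probe set ranked 24 from the top by this difference, which is the value that chose it. Against control shRNA in control medium the difference was 1.88 (SE 0.24). That comparison shares the SET8 shRNA arrays with the first, so it adds no separate evidence.

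With control shRNA, Wnt3a medium left TDG at 6.61 ± 0.001, against 6.54 ± 0.07 in control medium (SD, n = 2 each), a difference of 0.08 (SE 0.24). The 2 media did not overlap, but the gap between them was 0.03 on the log2 scale. The Wnt3a arrays with control shRNA also served to choose TDG, so this difference too is given without a test.

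**Figure D1:**
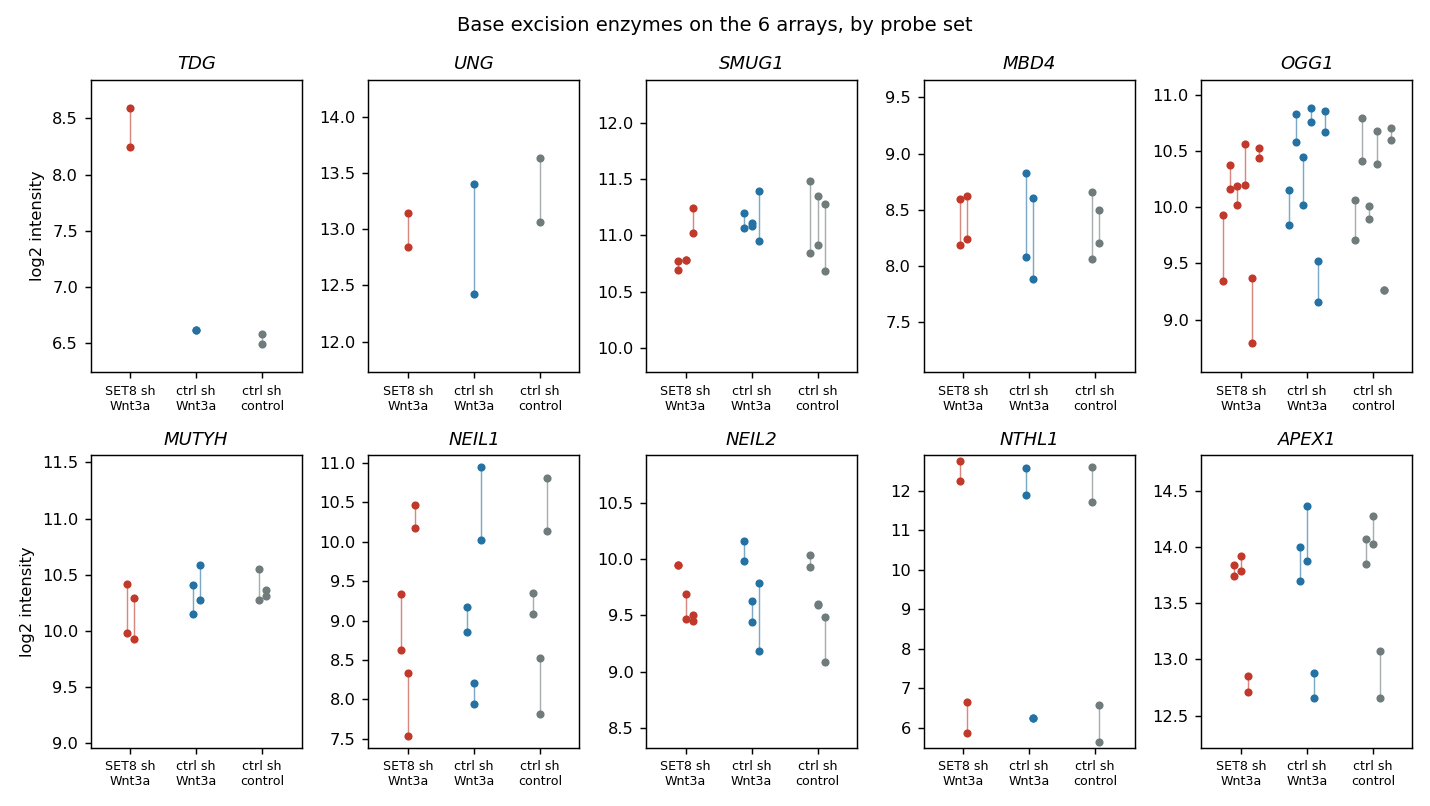
Log2 intensity (vertical axes, each with its own range) of each probe set of the 10 enzymes in SET8 shRNA with Wnt3a medium (red), control shRNA with Wnt3a medium (blue) and control shRNA with control medium (grey). Points are single arrays and a line joins the 2 arrays of a group for 1 probe set. TDG is at 8.25 and 8.59 in red and between 6.49 and 6.61 in blue and grey.

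The low TDG level with control shRNA limits the measurement. Array medians were between 7.63 and 7.79, so TDG lay below the median on all 4 control shRNA arrays and above it on the 2 SET8 shRNA arrays. A probe set was tested only if it exceeded the array median on at least 2 of 6 arrays, and TDG met this through the SET8 shRNA arrays alone. The random-sequence control probes were at 4.66 to 4.84, below TDG on every array. These control values are summarised per array over many probes, so they do not show the spread of the background. Whether TDG with control shRNA stood above that spread was not tested. RefSeq also lists a TDG pseudogene, TDGP1, on chromosome 12, and pseudogenes of UNG and SMUG1 elsewhere; probe sequences were not used here, and cross-hybridisation of such copies was not tested. TDG has no further probe set on the array with which its value could be compared.

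The next protein-coding genes beside TDG on the chromosome are UQCC6 and GLT8D2 in RefSeq (GRCh38.p14). No probe set was matched to UQCC6. GLT8D2, which encodes a glycosyltransferase domain protein, read 9.40 and 9.33 with SET8 shRNA, against 9.29 and 8.80 with control shRNA in Wnt3a medium and 8.892 and 7.996 in control medium. Its difference between the shRNAs was 0.32 (SE 0.34, limma adjusted p = 0.95), and the groups were separated by a gap of 0.04.

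None of the other 9 enzymes passed the test between the shRNAs. They have 25 probe sets, of which 24 passed the filter on low values; a dim NTHL1 probe set did not. The 24 log2 differences between SET8 and control shRNA in Wnt3a medium ran from -0.44 to 0.25 with a median of -0.13, against a median of 0.01 over all 23808 probe sets tested. Of them 5 were above 0 and 19 below. None of the 24 passed a limma adjusted p of 0.05, and the smallest adjusted p was 0.84. In the same test 0% of all probe sets passed (0 of 23808, with a smallest adjusted p of 0.0895). Of the 24, 0 had an unadjusted p under 0.05, where 7.16% of all probe sets did.

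Counts of separated arrays were taken as well. With SET8 shRNA 6 of the 24 lay below both control shRNA arrays in Wnt3a medium without overlap, where 17% of all probe sets did, and 0 lay above, where 17.1% did. The 6 belong to SMUG1, OGG1 and NEIL2. The nearest arrays of the groups were 1.5-fold or more apart for 0 of the 24, where they were for 3.16% of all probe sets. They were for TDG, which follows from how it was chosen. The 95% intervals of the 24 differences reached down to -1.05 for SMUG1 and up to 1.16 for NTHL1, and 18 of 24 intervals lay within 2-fold in both directions. These widths limit what 2 arrays a group can show.

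**Figure D2:**
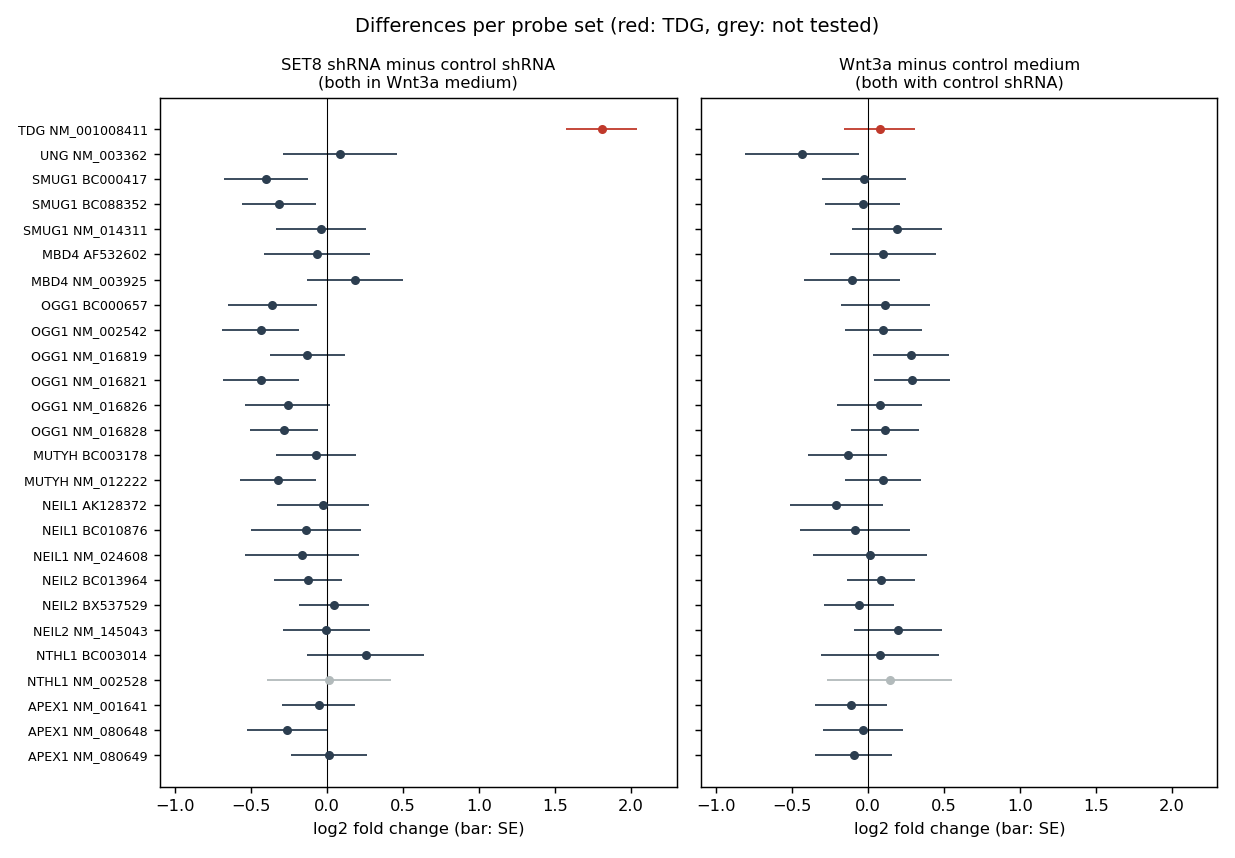
Log2 fold change (horizontal axes) of each probe set for SET8 shRNA minus control shRNA in Wnt3a medium (left) and Wnt3a minus control medium with control shRNA (right). Points are fold changes from the linear model and bars the moderated SE; TDG (red) is at 1.81 on the left and 0.08 on the right, while all tested probe sets of the other enzymes (dark) lie between -0.44 and 0.29.

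UNG, the main enzyme that removes uracil left by replication, gives nuclear and mitochondrial forms from 1 gene, and its probe set (NM_003362, chromosome 12, hg18, 108020389 to 108033181) stands for transcripts of both. It read 12.84 and 13.15 with SET8 shRNA, 13.40 and 12.42 with control shRNA in Wnt3a medium, and 13.64 and 13.07 in control medium. The arrays of the second group lay 0.98 apart and enclosed both SET8 shRNA arrays. The difference between the shRNAs was 0.08 (SE 0.38, limma adjusted p = 0.997), with a 95% interval from -0.80 to 0.96. It was 0.57 without replicate 1 and -0.41 without replicate 2 of control shRNA in Wnt3a medium, so its sign rested on which of these arrays was kept.

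SMUG1, which removes uracil and 5-hydroxymethyluracil, has 3 probe sets on chromosome 12 that gave unlike differences. BC000417 read 10.77 and 10.69 with SET8 shRNA, against 11.20 and 11.07 with control shRNA in Wnt3a medium and 10.84 and 11.48 in control medium. BC088352 read 10.78 and 10.78, against 11.11 and 11.08 and then 10.91 and 11.35 in the same groups. On both, the SET8 shRNA arrays were the lowest of the 6. How many of all probe sets had this order was not counted. Against control shRNA in Wnt3a medium alone, 17% of all probe sets tested were lower without overlap. The differences of BC000417 and BC088352 between the shRNAs were -0.40 (SE 0.28, limma adjusted p = 0.89) and -0.32 (SE 0.25, limma adjusted p = 0.92). On the third, NM_014311, the groups overlapped and the difference was -0.04 (SE 0.30).

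MBD4, the other thymine glycosylase, had no group of arrays that stood apart. AF532602 read 8.19 and 8.59 with SET8 shRNA, 8.08 and 8.83 with control shRNA in Wnt3a medium, and 8.06 and 8.66 in control medium. NM_003925 read 8.24 and 8.62, then 7.89 and 8.61, then 8.20 and 8.50 in the same order (chromosome 3, hg18, 130632482 to 130641542). The 3 groups overlapped on both probe sets. In each of them the array numbered 2 was the brighter, by 0.30 to 0.75, which is more than any difference between group means: these were -0.07 (SE 0.35) and 0.18 (SE 0.31) between the shRNAs.

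OGG1 and the NEIL and NTHL1 enzymes act on oxidised bases, and MUTYH acts on adenine paired with 8-oxoguanine. OGG1 removes 8-oxoguanine paired with cytosine, and splicing of its last exons gives nuclear and mitochondrial forms. Its 6 probe sets all had lower means with SET8 shRNA than with control shRNA in Wnt3a medium, with differences of -0.44 to -0.13, and none passed the test. Without 1 array the sign turned for NM_016819 (0.08 without control shRNA, Wnt3a replicate 2) and NM_016826 (0.03 without SET8 shRNA replicate 2). With control shRNA, all 6 had higher means in Wnt3a than in control medium, by 0.08 to 0.29. Against control medium, NM_016819 alone was higher with SET8 shRNA, by 0.15 (SE 0.25). The lowest differences between the shRNAs were those of NM_002542 (-0.44, SE 0.25, limma adjusted p = 0.84) and NM_016821 (-0.44, SE 0.25, limma adjusted p = 0.84). NM_002542, a transcript that ends at 9774087 on chromosome 3 (hg18), read 10.38 and 10.16 with SET8 shRNA, against 10.58 and 10.83 with control shRNA in Wnt3a medium and 10.41 and 10.80 in control medium. NM_016821, a transcript that ends farther on at 9783342, read 10.57 and 10.19, against 10.76 and 10.88 and then 10.39 and 10.67 in the same groups. On NM_002542 both SET8 shRNA arrays were below the 4 others, an order whose share over all probe sets was not counted. On NM_016821 the SET8 shRNA arrays overlapped with control medium. These probe sets share 1 gene and in part its exons, so they are not independent measurements.

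MUTYH removes adenine that has paired with 8-oxoguanine. Its probe set NM_012222 (chromosome 1) read 10.29 and 9.93 with SET8 shRNA, against 10.59 and 10.28 with control shRNA in Wnt3a medium and 10.31 and 10.36 in control medium. The difference between the shRNAs was -0.32 (SE 0.25, limma adjusted p = 0.92), and the other probe set gave -0.08 (SE 0.26). Values overlapped between the shRNAs on both.

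NEIL1 and NEIL2 remove oxidised pyrimidines and can act on single-stranded DNA. The 3 NEIL1 probe sets, which differ in level from 7.54 to 10.94 over all arrays, gave differences between the shRNAs of -0.17 to -0.03 with SE of 0.31 to 0.38. On NM_024608, NEIL1 read 10.46 and 10.17 with SET8 shRNA, within 10.03 and 10.94 with control shRNA in Wnt3a medium and within 10.14 and 10.81 in control medium. NEIL2 probe sets differed in spread: BC013964 kept within 0.23 over all 6 arrays, while NM_145043 spanned 0.70. BC013964 read 9.94 and 9.94 in SET8 shRNA arrays against 9.98 and 10.16 with control shRNA in Wnt3a medium. Its 3 differences between the shRNAs were -0.13, 0.05 and -0.01.

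NTHL1, a bifunctional glycosylase for oxidised pyrimidines, had the highest difference after TDG. BC003014 read 12.75 and 12.24 with SET8 shRNA, 11.90 and 12.59 with control shRNA in Wnt3a medium, and 11.72 and 12.60 in control medium. The groups overlapped and the difference between the shRNAs was 0.25 (SE 0.39, limma adjusted p = 0.98). It was -0.09 for NTHL1 without replicate 1 and 0.60 without replicate 2 of control shRNA in Wnt3a medium. NM_002528 stayed below the array median on all 6 arrays, between 5.65 and 6.67, and was not tested. Its unfiltered difference was 0.01 (SE 0.41).

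APEX1, which cuts the abasic sites all these glycosylases leave, was bright throughout. Its 3 probe sets cover the same span (chromosome 14, hg18, 19993129 to 19995766) and lay between 12.66 and 14.37. NM_080648 read 13.79 and 13.92 with SET8 shRNA, against 13.87 and 14.37 with control shRNA in Wnt3a medium and 14.03 and 14.28 in control medium. Differences between the shRNAs were -0.27 (SE 0.26), -0.06 (SE 0.24) and 0.01 (SE 0.25), and the groups overlapped on all 3.

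Over all 6 arrays the 25 probe sets other than TDG spanned 0.23 (NEIL2) to 1.21 (UNG) on the log2 scale, with a median span of 0.70. TDG, which was picked by its high value with SET8 shRNA, spanned 2.10. In 6 of the 25 the array numbered 2 was brighter in all 3 groups, and in 3 it was dimmer in all 3. For the oxidised base enzymes NEIL1 (NM_024608) and NTHL1 (BC003014), array 2 was brighter by 0.92 and 0.69 with control shRNA in Wnt3a medium and by 0.66 and 0.89 in control medium, but dimmer by 0.29 and 0.51 with SET8 shRNA. TDG's arrays differed by 0.35 within the SET8 shRNA group and by 0.09 or less within the others.

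Between Wnt3a and control medium none of the other 9 enzymes passed the test. The 24 tested probe sets other than TDG had differences of -0.44 to 0.29 between Wnt3a and control medium with a median of 0.04, against 0.02 over all probe sets tested. 13 were above 0 and 11 below. The smallest unadjusted p among them was 0.28 in limma, and 0 of 24 passed at either threshold. Of all probe sets, 0% passed the adjusted threshold and 2.14% had an unadjusted p under 0.05. Both Wnt3a arrays lay above both control medium arrays for 2 of the 24, both of OGG1, where 12% of all probe sets did, and below for 0, where 9.15% did. None was 1.5-fold or more apart, where 0.643% of all probe sets were. The lowest difference was that of UNG, -0.44 (SE 0.38, limma adjusted p = 1), with overlapping arrays. Compared by array number, UNG was lower with Wnt3a both times, at 13.40 against 13.64 and 12.42 against 13.07. The labels do not pair these arrays, and Wnt3a replicate 1 was above control medium replicate 2, at 13.40 against 13.07. The UNG difference was -0.93 without Wnt3a replicate 1 and 0.05 without Wnt3a replicate 2. The highest was that of OGG1 on NM_016821, 0.29 (SE 0.25, limma adjusted p = 1).

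The SET8 shRNA arrays were also set against the control medium arrays with control shRNA, a comparison that joins both differences and shares arrays with each. The 24 differences had a median of -0.17, with 6 above 0 and 18 below, between -0.43 and 0.33. None passed, with a smallest limma adjusted p of 0.69, where 0.0504% of all probe sets did. An unadjusted p under 0.05 was reached by 0 of the 24 and by 10.6% of all probe sets. Without overlap 1 of the 24 was higher, where 21.5% of all were, and 7 were lower, where 18.2% were. Of the 24, 0 were 1.5-fold or more apart, where 5.02% of all probe sets were. TDG was, which follows from how it was chosen.

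The genes around these enzymes were then described from 6 lists, by the brightest tested probe set of each gene. In every list and every comparison the number past a limma adjusted p of 0.05 was 0. For base excision processing, synthesis and ligation, 25 of 27 genes were tested; between the shRNAs 16 were above 0 and 9 below, with a median of 0.09. The gap-filling polymerase POLB was at 0.09 (SE 0.23), the scaffold XRCC1 at -0.29 (SE 0.24), its partner ligase LIG3 at 0.10 (SE 0.27) and the strand break sensor PARP1 at -0.25 (SE 0.27). The smallest p values belonged to HMGB1 (0.64, SE 0.28, limma adjusted p = 0.70), a chromatin protein that also acts as a cofactor in base excision repair, and PARP3 (-0.59, SE 0.27, limma adjusted p = 0.73).

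HMGB1 is represented by 5 probe sets, and the list's rule took the brightest. On it HMGB1 read 12.86 and 13.12 with SET8 shRNA, against 12.20 and 12.50 with control shRNA in Wnt3a medium and 12.26 and 12.77 in control medium. The 4 further probe sets gave 1.27, 1.12, 1.07 and, on one that was not tested, 0.90. On all 5 both SET8 shRNA arrays lay above both control shRNA arrays in Wnt3a medium, where 17.1% of all probe sets tested did. These probe sets read 1 gene on the same arrays, so they are not independent measurements. The smallest limma adjusted p among them was 0.22. HMGB1 has near-identical processed pseudogenes and paralogs in the human genome, and their share in the signal was not tested.

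The list of CRL4-Cdt2, the ligase that marks TDG and SET8 proteins for destruction, and its substrates had a median of 0.07 between the shRNAs over 9 genes, 5 above and 4 below 0. The substrate receptor DTL was at 0.07 (SE 0.34), the adaptor DDB1 at -0.18 (SE 0.25), PCNA at 0.16 (SE 0.26), the cullin CUL4A at 0.39 (SE 0.22, limma adjusted p = 0.84), and the substrates CDT1 at -0.03 (SE 0.23) and CDKN1A at 0.13 (SE 0.29). KMT5A, the target of the shRNA, was the lowest at -1.56 (SE 0.34, limma adjusted p = 0.24).

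For cytosine methylation and demethylation, 12 of 16 genes were tested, with a median of 0.04, 6 above and 6 below 0. Of the TET enzymes, which make the oxidised cytosines that TDG removes, TET3 was tested and was at -0.21 (SE 0.33); TET1, between 4.89 and 5.16, and TET2, between 4.42 and 6.14, were below the array median. The methyl-CpG binding protein MBD2 had the smallest p (-1.17, SE 0.35, limma adjusted p = 0.44), but a further tested probe set of MBD2 gave 0.44 and so did not share its direction.

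The SUMO and acetylation partners of TDG, 11 genes all tested, had a median of 0.04 between the shRNAs, with 7 above 0 and 4 below. SENP2, a SUMO protease, read 8.91 and 9.19 with SET8 shRNA, against 8.24 and 7.79 with control shRNA in Wnt3a medium and 8.403 and 7.275 in control medium. Its difference was 1.03 (SE 0.39, limma adjusted p = 0.63), and 0.91 on a further probe set. CREBBP, an acetyltransferase, was at -0.46 (SE 0.34, limma adjusted p = 0.91). The 8 nucleotide pool enzymes had a median of -0.09, led by NUDT18 at -0.63 (SE 0.35, limma adjusted p = 0.82) and ITPA at -0.42 (SE 0.24, limma adjusted p = 0.85). Of the 2 remaining glycosylases MPG, which removes alkylated bases, was at -0.39 (SE 0.28) and NEIL3 at 0.44 (SE 0.31). MPG's further tested probe sets were at 0.14 and 0.09, in the other direction.

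**Figure D3:**
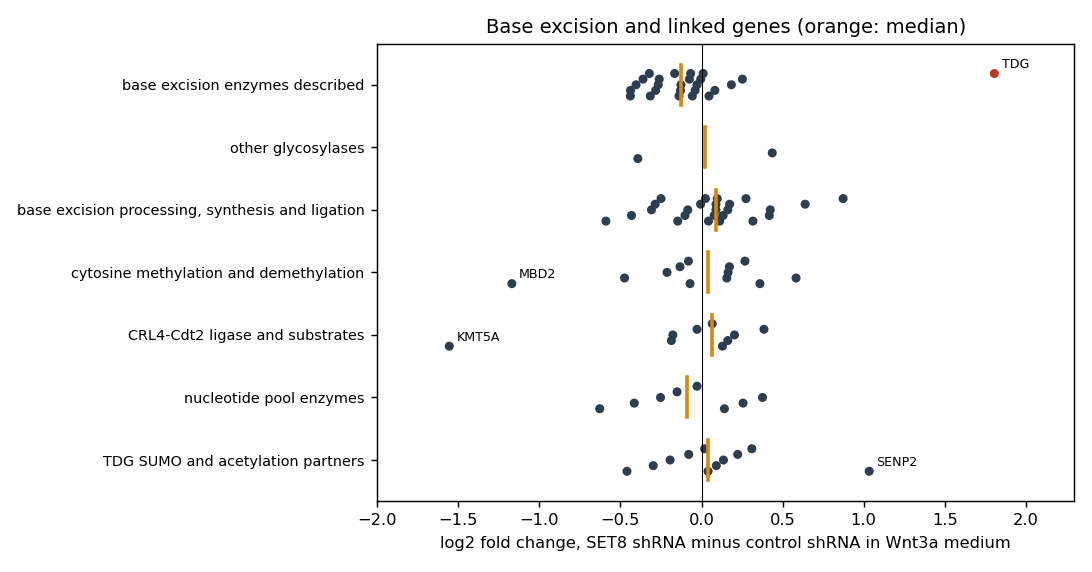
Log2 fold change (horizontal axis) for SET8 shRNA minus control shRNA in Wnt3a medium, by list. Points are the tested probe sets of the 10 enzymes (top row) and the brightest tested probe set per gene (other rows), and orange bars are medians, which lie between -0.13 and 0.09; TDG (red) is at 1.81 and KMT5A at -1.56.

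In the Wnt3a comparison the same 6 lists had medians between -0.09 and 0.15, and every gene with one of the 2 smallest p values of its list had a limma adjusted p of 1. These were MPG (0.04) and NEIL3 (0.24), POLD3 (0.32), a subunit of DNA polymerase delta, and the ligase LIG1 (-0.24), GADD45B (-0.33) and GADD45G (-0.48), CUL4A (-0.21) and CDKN1A (-0.28), NUDT18 (0.38) and SAMHD1 (0.47), and SAE1 (-0.15) and PIAS1 (0.23). Further tested probe sets had the other sign for CDKN1A (0.19), SAE1 (0.05) and MPG (-0.37 and -0.13). With SET8 shRNA and Wnt3a medium set against control shRNA and control medium, the genes of the lists named by the same rule included KMT5A (-1.58, SE 0.34, limma adjusted p = 0.14) and SENP2 (1.21, SE 0.39, limma adjusted p = 0.32). In the same comparison PARP2 was at 0.63 (SE 0.24), PARP3 at -0.68 (SE 0.27), MBD2 at -0.86 (SE 0.35, but 0.69 on a further tested probe set), ITPA at -0.55 (SE 0.24) and NUDT5 at 0.44 (SE 0.25), SUMO3 at 0.48 (SE 0.29), PCNA at 0.37 (SE 0.26), MPG at -0.36 (SE 0.28) and NEIL3 at 0.68 (SE 0.31).

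The genes whose pattern lay closest to that of TDG were found by the root mean square distance over the 6 arrays after each probe set was centred on its mean. They were IL27RA, a cytokine receptor subunit, at 0.07, GALC, a lysosomal galactosylceramidase, at 0.11, RPS6KA2, a ribosomal S6 kinase, at 0.11, CDCA7L at 0.13 and CEND1 at 0.15. IL27RA read 10.35 and 10.53 with SET8 shRNA, against 8.73 and 8.71 with control shRNA in Wnt3a medium and 8.46 and 8.60 in control medium. GALC, which like TDG lay below the array median with control shRNA, read 8.05 and 8.21, against 6.43 and 6.46 and then 6.21 and 6.56 in the same groups.

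Further probe sets exist for 4 of these 5 genes. They gave 1.65 for IL27RA, 1.76 for CEND1 and 1.60 for RPS6KA2 between the shRNAs, all with no overlap of the arrays, and 0.24 with overlapping arrays for GALC, where the second probe set was not tested. These genes were selected by their likeness to a pattern chosen for its height with SET8 shRNA, so their values are descriptive.

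**Figure D4:**
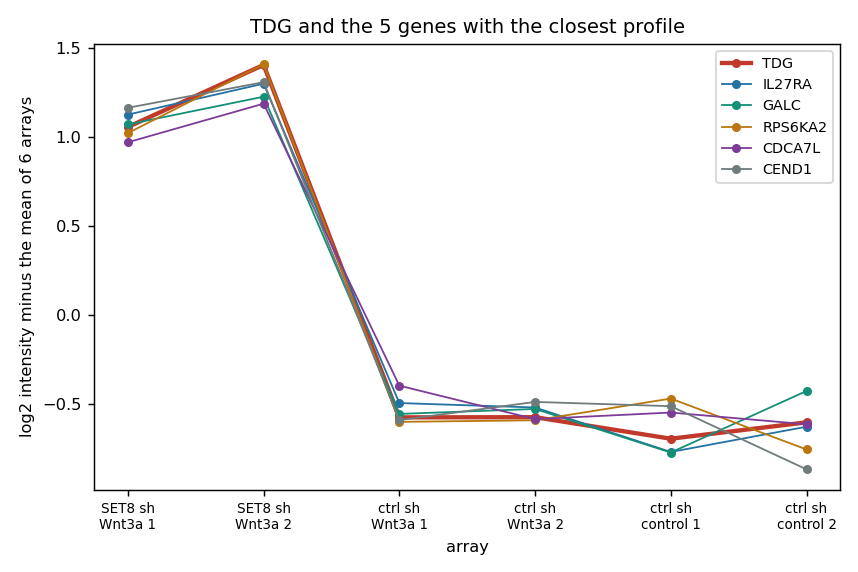
Log2 intensity minus the mean of the 6 arrays (vertical axis) for TDG (thick red) and the 5 genes with the closest profile, on each array (horizontal axis). All 6 are about 1 or more above their mean in both SET8 shRNA arrays and about 0.4 to 0.9 below it in the 4 control shRNA arrays.

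Markers of other cell types were examined beside the TDG difference. Of 6 fibroblast markers 1, COL1A1, was above the median on all arrays, and their summed intensity was 4514 to 4922 with SET8 shRNA, 6119 to 7015 with control shRNA in Wnt3a medium and 5713 to 6047 in control medium. COL1A1, the brightest, was 12.18 and 11.99 with SET8 shRNA, 12.70 and 12.48 with control shRNA in Wnt3a medium, and 12.35 and 12.27 in control medium, and it makes up most of the sum. The dimmer markers COL1A2, COL3A1 and DCN were instead highest in control medium. COL1A2 on its tested probe set averaged 5.11 ± 0.51 with SET8 shRNA, 5.78 ± 0.70 with control shRNA in Wnt3a medium and 8.07 ± 0.29 in control medium (SD, n = 2 each). Its difference was -2.29 (SE 0.40, limma adjusted p = 1) for Wnt3a against control medium with control shRNA, -0.68 (SE 0.40, limma adjusted p = 0.85) between the shRNAs, and -2.97 (SE 0.40, limma adjusted p = 0.055) for SET8 shRNA with Wnt3a against control medium. COL3A1 was at -0.85 (SE 0.34, limma adjusted p = 1) for Wnt3a against control medium. DCN, which was not tested, read 6.11 and 5.38 with SET8 shRNA, 5.17 and 5.64 with control shRNA in Wnt3a medium, and 7.24 and 7.75 in control medium. Of 6 blood cell markers 1, CD68, was above the median on all arrays and HBA1 was on 5. Their sum was 871 to 964 with SET8 shRNA, against 1932 to 2081 with control shRNA in Wnt3a medium and 1557 to 2191 in control medium. HBA1 was 8.16 and 7.76 with SET8 shRNA, against 9.31 and 9.89 with control shRNA in Wnt3a medium. CD68, also made by non-blood cells, was 8.65 and 9.07 with SET8 shRNA, against 10.08 and 9.79 with control shRNA in Wnt3a medium. The defining leukocyte marker PTPRC stayed between 4.92 and 6.03 and HBB between 4.72 and 6.10, against 4.66 to 4.84 for the random-sequence control. Both sums were lower where TDG was higher, and their part in the TDG difference was not tested.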

How the data were processed

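Per the submitters' processing notes, the authors summarised the arrays with RMA (robust multi-array average); its version and settings: not given in the sources used here. Linear intensity values were deposited by the authors, 1 for each probe set on each array, and the series' value table repeats them. Sequenced depth does not apply to arrays; 2 arrays a group limit the precision. Probe set positions refer to hg18 per the annotation column of the deposited files, and symbols were updated by Entrez gene ID through RefSeq (86.4% of probe sets matched).

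Here log2 of each deposited value was used, without an offset. Probe sets above the array median on at least 2 of 6 arrays were tested (23808, with 21225 untested) in R 4.3.3 with limma 3.58.1 (lmFit and eBayes, 3 groups, all 6 arrays, 3 residual and 4.32 prior degrees of freedom). Adjusted p-values are Benjamini-Hochberg over all probe sets tested, with a threshold of 0.05. The script was tested on simulated data. An exact permutation of 2 against 2 arrays cannot go below p = 0.333 and was not run. The members and lists were chosen with earlier results of these data known. Named are all members, per list the genes past the threshold or else those with the 2 smallest p-values, the neighbours of TDG and the 5 genes closest to it, without uncharacterised loci. Some genes that these rules and marker lists hold are not reported here. Alternatives were no filter, a filter at the 60th percentile, an offset of 64, median centring, an intensity trend, only the 4 arrays compared, a replicate block and each array left out.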

Additional observations from a re-analysis of the deposited data

How the results depend on the processing

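The TDG difference between the shRNAs was 1.33 to 1.81 over the 10 alternatives in which its probe set was kept; the lowest value came with an offset of 64 added before log2, which compresses dim values. The Wnt3a difference of TDG was 0.01 to 0.12. TDG failed the filter at the 60th percentile and without SET8 shRNA replicate 1 or 2. Of 960 fold changes of the members under the alternatives, 79 changed sign and 47 moved by more than 1 SD between arrays. Many could not move, because a change of filter, of spread estimate or of block leaves a fold change as it was. So does leaving out an array outside the comparison, and the same limits apply to the TDG ranges. None of the other 9 enzymes passed under any of the 14 alternatives, in any comparison to which each applied. The number of probe sets called on the whole array did change. For Wnt3a it was 0 and became 2 under the 60th percentile filter, 2 with an intensity trend in the spread and 2 with the offset; it stayed at 0 without any 1 array. For SET8 shRNA against control shRNA it was 0 and became 15 with the trend and 28 with only the 4 arrays compared; without 1 array it ran from 0 to 31, with 31 without either control medium array and 8 without control shRNA, Wnt3a replicate 1. For SET8 shRNA with Wnt3a against control shRNA with control medium it was 12, and 0 with no filter, 52 with the stricter filter, 31 with the trend, 36 with the offset and 230 with only 4 arrays; without 1 array it ran from 0 to 274, with 274 and 235 without Wnt3a replicates 1 and 2 of control shRNA, 57 and 5 without control medium replicates 1 and 2, and 0 without either SET8 shRNA array. The cause of these changes was not tested, and some of the settings also held fewer arrays or probe sets. With the replicate number as a block (replicate block), the last count was 0 and the other counts stayed at 0. Nothing in the labels pairs the arrays. Differences between same-numbered arrays correlated at 0.75 between the media with control shRNA, but at -0.29 between SET8 shRNA and either control group. The SE and p-values of the main model for Wnt3a take no account of this shared difference. A block on the 4 control shRNA arrays alone was not run. The block over all 3 groups fits 1 shared difference, which the SET8 shRNA arrays did not follow. With the numbers of the SET8 arrays exchanged, chosen after the data were seen, the block gave 182 calls for SET8 shRNA and 792 for the comparison with control medium.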
